A study of Mus musculus with 4 samples.

Results

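The gene levels of leukemic whole bone marrow labelled wild type, from the C57BL/6 strain and carrying MLL-AF9 with intact Hes1 (Hes1+/+), were described. The group consists of the 2 arrays titled as wild type, out of 4 arrays in the series, and was chosen from those titles alone. The other arrays come from MLL-AF9 leukemic marrow labelled Hes1 null and are not compared here. Both groups share the fusion oncogene, so neither holds normal marrow, and no level below can be read as raised or lowered by the leukemia. The sources used here do not say how MLL-AF9 was delivered, whether each array came from its own mouse, or how many host cells remained, and the marrow was profiled whole rather than sorted. The spread between the arrays may therefore be technical in part. In such bulk RNA, fewer cells of a type and less RNA per cell cannot be told apart.

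MLL-AF9 joins the DNA-binding end of the chromatin regulator MLL to AF9, a partner that recruits transcription elongation factors and the histone methyltransferase DOT1L. The fusion is known to hold on genes such as Hoxa9 and Meis1 and to arrest myeloid cells at a granulocyte and macrophage progenitor stage. Neutrophils make their granule proteins in order, with primary (azurophil) granule enzymes at the promyelocyte stage and secondary and tertiary granule proteins later, while monocytes branch off under the factors PU.1 and IRF8.

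Levels are log2 of the deposited probe set intensity and are printed for replicate 1 and then replicate 2. The array covers 19938 genes under the rule of 1 probe set with 1 symbol per gene, and the gene median was 6.36 on both arrays. A probe set's brightness depends on its probes as well as on RNA amount, so ranks and percentiles describe the arrays and do not measure molecules per cell. As a scale for this, 999 genes have several probe sets, and their brightest and dimmest probe sets lay a median of 0.87 apart, with 45.5% of these genes over 1 log2 unit apart. Landmarks were taken from genes chosen as foreign to marrow, and whether marrow uses any of them was not tested. The 95th percentile of 1027 olfactory receptor genes was 5.58, called the olfactory limit here. Of 35 measured genes typical of tissues foreign to marrow, such as albumin or insulin, 14 still lay above that limit, and the brightest of them, the myelin gene Mbp, averaged 7.35, called the foreign-tissue ceiling. The ceiling rests on Mbp alone, since the next brightest of the 35 averaged 6.64. Every count above the ceiling depends on that gene, and genes between 6.64 and 7.35 would pass a ceiling set without it. Of all genes, 64.0% averaged above the olfactory limit and 38.4%, or 7654 genes, above the ceiling. Levels between the landmarks are given as values without calling the gene expressed.

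The brightest gene on the arrays was Rn7sk (13.55 and 13.56), which encodes the noncoding 7SK RNA that restrains transcription elongation. The translation elongation factor gene Eef1a1 ranked next (13.51 and 13.51), and the actin gene Actb read 13.45 and 13.46. Elane, which encodes neutrophil elastase of the primary granules, read 13.01 and 13.08 and ranked 9th of all genes. Myeloperoxidase, Mpo, the heme enzyme of the same granules, read 12.83 and 12.69. These myeloid enzymes thus sat among reference genes on both arrays. Small noncoding and unnamed transcripts left aside, other genes among the 20 brightest were the lysosomal membrane gene Laptm5 (12.87 and 12.87), the intermediate filament gene Vim (12.86 and 12.87) and the thioredoxin gene Txn1 (13.2 and 13.17). Hpgd, encoding the enzyme that inactivates prostaglandins, read 12.91 and 12.76, and Ly6e, a GPI-anchored surface protein gene, read 13.04 and 13.04. Serinc3, a membrane protein gene, read 13.19 and 13.2, and the histone gene H4c4 read 13.29 and 13.27. Ribosomal protein genes in that set were Rpl10, Rps6, Rpl28 and Rplp0, all between 12.79 and 13.14 on both arrays. The remaining ones were Tpt1, Hspa8, Tubb5, Pfn1 and Eef2, and a probe set annotated as Baiap2l1 (13.48 and 13.44). The accessions listed for the latter match no RefSeq transcript of Baiap2l1, unlike those of the other 19 genes, so its symbol is not relied on. The top 1% of genes, 200 in number, held 15.4% of the summed linear intensity, and the top 10% held 56.1%.

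The arrays agreed closely across genes, with r = 0.995 and a Spearman rho of 0.994 (a description across genes, which are not replicates). The median absolute difference between them was 0.11. With genes cut into 10 equal classes by level, it went from 0.138 in the dimmest class to 0.089 in the brightest. Of all genes, 0.547% (109) lay at least 2-fold apart, 72 of them (0.361%) brighter on replicate 2 and 37 (0.186%) brighter on replicate 1. By class, 28 of these 109 were in class 7, counted from the dimmest, and 7 in the brightest.

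**Figure D1:**
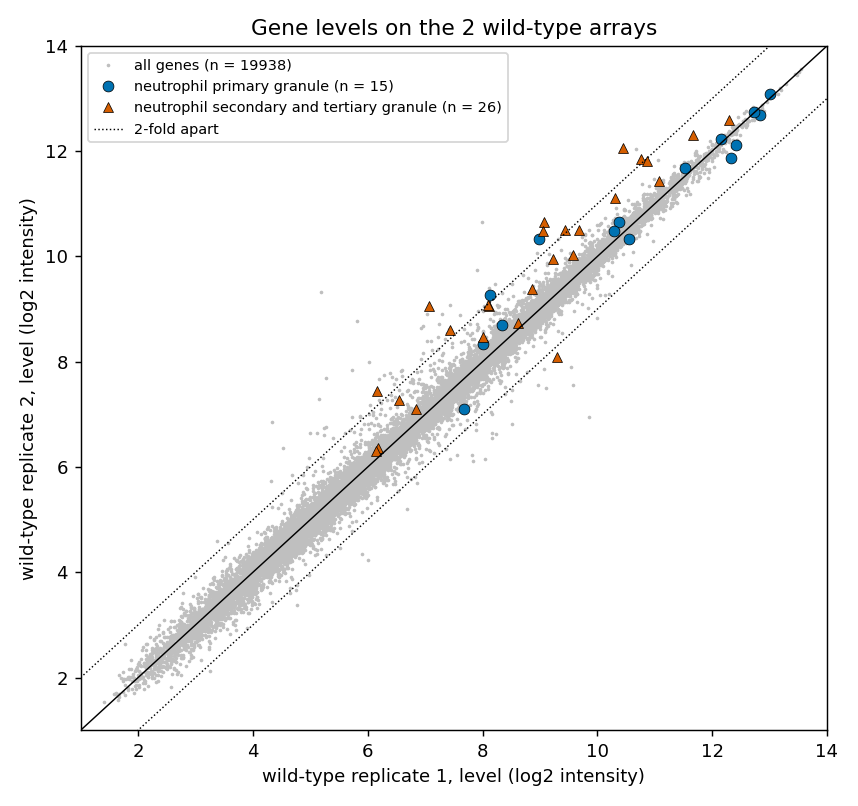
Level of each gene (log2 intensity) on wild-type replicate 1 (horizontal) and replicate 2 (vertical), with 15 primary granule genes as circles and 26 genes of the secondary and tertiary granule list as triangles. The solid line marks equal levels and the dotted lines a 2-fold difference. Primary granule genes mostly follow the line, and 25 of the 26 triangles lie above it.

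Genes of the primary granules were bright. All 15 listed members were measured, all averaged above the foreign-tissue ceiling (38.4% of all genes did), and 10 stood in the top 10% of genes, against 10% by construction over all genes. Their median level was 10.52, at the 95.3th percentile. Besides Elane and Mpo, the proteoglycan gene Srgn, whose product packs granule proteases, read 12.73 and 12.75, and the lysozyme gene Lyz2, shared with monocytes, read 12.42 and 12.11. Proteinase 3, Prtn3, read 12.16 and 12.23, and cathepsin G, Ctsg, read 12.33 and 11.87, so the serine proteases of this granule were high on both arrays. Ctsc, which encodes the peptidase that activates them, read 10.37 and 10.66, and Ms4a3, a membrane gene of granulocyte and monocyte progenitors, read 10.55 and 10.34. Fcnb, encoding ficolin B, was 2.57-fold brighter on replicate 2 (8.98 and 10.34), and Nkg7, a granule membrane gene that cytotoxic cells also use, was 2.2-fold brighter there (8.13 and 9.26). Those were the members at least 2-fold apart, and the median difference of the list, replicate 2 minus replicate 1, was 0.07.

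The promoters of Elane, Prtn3, Mpo and Ctsg are shown because these bright granule enzymes share a short sequence in them. Elane and Prtn3 are neighbouring genes. Sequences are RefSeq's for build GRCm38.p6, run from 250 bases before to 50 after the annotated start, and are written 5′ to 3′ on the gene's strand. Capitals mark matches to GAGGAAG (the purine-rich core that PU.1 and related ETS factors bind), to CCAAT (the CCAAT box) and to TATAAA (the TATA box), with both strands searched. The TATAAA match in Ctsg lies on the opposite strand, 237 bases before the start, and is not shown to be a TATA box. The windows are chr10:79886062-79886361 (plus strand) for Elane, chr10:79879417-79879716 (plus) for Prtn3, chr11:87793534-87793833 (plus) for Mpo and chr14:56102525-56102824 (minus) for Ctsg.
Elane: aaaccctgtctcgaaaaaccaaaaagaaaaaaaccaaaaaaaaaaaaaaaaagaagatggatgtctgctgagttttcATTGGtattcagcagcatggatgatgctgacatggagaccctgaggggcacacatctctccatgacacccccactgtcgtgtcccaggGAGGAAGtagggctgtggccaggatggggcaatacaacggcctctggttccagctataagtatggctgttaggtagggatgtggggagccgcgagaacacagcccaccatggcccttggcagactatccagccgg
Prtn3: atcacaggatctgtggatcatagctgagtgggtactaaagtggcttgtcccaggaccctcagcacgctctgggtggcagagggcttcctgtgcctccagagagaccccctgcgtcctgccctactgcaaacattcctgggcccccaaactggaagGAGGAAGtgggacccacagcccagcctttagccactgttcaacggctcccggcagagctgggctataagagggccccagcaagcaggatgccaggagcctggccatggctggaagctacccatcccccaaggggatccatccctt
Mpo: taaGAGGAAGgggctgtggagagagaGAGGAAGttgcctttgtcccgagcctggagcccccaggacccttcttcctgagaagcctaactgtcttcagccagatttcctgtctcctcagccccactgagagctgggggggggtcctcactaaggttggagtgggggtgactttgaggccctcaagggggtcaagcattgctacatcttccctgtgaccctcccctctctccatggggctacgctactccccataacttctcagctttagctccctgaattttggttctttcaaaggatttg
Ctsg: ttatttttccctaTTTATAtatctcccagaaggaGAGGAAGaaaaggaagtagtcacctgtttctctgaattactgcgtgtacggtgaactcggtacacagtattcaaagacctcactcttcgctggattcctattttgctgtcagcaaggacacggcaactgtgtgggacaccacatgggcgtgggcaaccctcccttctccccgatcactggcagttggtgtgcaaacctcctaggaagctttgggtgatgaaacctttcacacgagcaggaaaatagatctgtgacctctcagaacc
GAGGAAG or its complement stood in all 4 of these windows, starting 85 bases before the start in Elane, 95 in Prtn3, 247 and 224 in Mpo and 216 in Ctsg. Over all 15563 genes with a promoter in the table, 13% held it (95% Wilson interval 12.4 to 13.5). Among the listed primary granule genes it was 5 of 13 (38.5%, interval 17.7 to 64.5), so the other listed genes added 1 match. Among late granule genes it was 8 of 23 (34.8%, interval 18.8 to 55.1). The 4 genes were picked after their sequences had been searched, and a match is a description of letters, not a shown binding site.

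Late granule genes were also mostly above the ceiling but differed between the arrays. The list is named for the granules but also holds other neutrophil genes, such as the stefin genes and the receptor genes Cxcr2, Csf3r and Il1r2. Of 30 listed members 26 were measured, 21 averaged above the ceiling (38.4% of all genes) and 12 lay in the top 10%, with a median level of 9.06 on replicate 1 and 9.67 on replicate 2. Ngp, encoding neutrophilic granule protein, read 12.29 and 12.6, and lipocalin 2, Lcn2, which binds bacterial siderophores, read 11.67 and 12.31. Pglyrp1, a peptidoglycan-binding protein gene, read 10.86 and 11.82, and the lactoferrin gene Ltf read 8.87 and 9.38. On both arrays these secondary granule genes sat in the top 25% of genes. The calprotectin subunit genes S100a8 and S100a9 read 10.3 and 11.11 and, in the same order, 9.68 and 10.5. The cathelicidin gene Camp was 3.08-fold brighter on replicate 2 (10.44 and 12.07), and the gelatinase gene Mmp9 2.7-fold (9.05 and 10.49). Chil1 (9.07 and 10.65) and Chil3 (10.76 and 11.85), genes of chitinase-like proteins, and the stefin genes Stfa2 (9.43 and 10.51) and Stfa3 (7.07 and 9.05) were at least 2-fold brighter there too. So were Itgb2l (7.43 and 8.61), a neutrophil integrin gene, and Il1r2 (6.17 and 7.44), the decoy receptor of interleukin 1.

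In all, 25 of these 26 genes were brighter on replicate 2, where 46.9% of all genes were, and 8 were so by at least 2-fold (0.361% of all genes). The median difference was 0.77, and the list's summed linear intensity was 23619 on replicate 1 and 40183 on replicate 2. The exception was the collagenase gene Mmp8, which read 9.3 and 8.09 and was 2.33-fold brighter on replicate 1. Ly6g, the antigen recognised on mouse neutrophils, read 8.11 and 9.06, and the chemokine receptor gene Cxcr2 of mature neutrophils read 6.85 and 7.1, below the ceiling on both arrays. Further members, the granule receptor gene Cd177 (9.23 and 9.96) and the G-CSF receptor gene Csf3r (8.61 and 8.73), were higher on replicate 2 by less than 2-fold. Genes of the phagocyte NADPH oxidase, the complex that makes superoxide, had a median difference of 0.05. Its membrane subunit genes Cyba (12.43 and 12.47) and Cybb (12.3 and 12.22) and the GTPase gene Rac2 (12.39 and 12.47) were in the top 10%, and the cytosolic subunit genes Ncf1 (10.99 and 11.48) and Ncf4 (10.34 and 10.81) were within 2-fold between the arrays. The non-phagocyte family members Nox1, Nox3, Nox4, Duox1 and Duox2 all averaged below the olfactory limit.

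Monocyte genes were bright on both arrays, while many genes of resident macrophages lay near the landmarks. Of 26 measured monocyte genes 23 averaged above the ceiling (88.5%, against 38.4% of all genes). In the top 10% lay 11 of them, and the list's median level was 9.37. Fibronectin, Fn1, read 12.35 and 12.46, and Irf8, encoding the factor that drives monocyte and dendritic fate, read 12.01 and 11.95. F13a1, the coagulation factor XIII subunit gene of monocytes, read 11.58 and 11.25, and Csf1r, the receptor gene for macrophage colony-stimulating factor, read 10.37 and 10.28. Ccr2, which guides monocytes out of marrow, read 9.79 and 9.39, and the fractalkine receptor gene Cx3cr1 read 9.51 and 9.17. The integrin gene Itgam (CD11b) read 9.91 and 10.4, and the endotoxin coreceptor gene Cd14 read 7.46 and 8.29. Fcgr1, the high-affinity IgG receptor gene of mature monocytes and macrophages, read 5.33 and 5.37 and was within the olfactory range. Treml4 (7.03 and 8.9), Ace (6.97 and 8.16) and Vcan (5.24 and 6.75) were at least 2-fold brighter on replicate 2, and Ms4a4c (8.5 and 7.26) on replicate 1. Overall the list had no common direction, with 13 members brighter on each array.

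Among 25 measured tissue macrophage genes, 7 averaged above the ceiling, 28.0% against 38.4% of all genes. The lysosomal membrane gene Cd68 read 11.28 and 11.24, the F4/80 gene Adgre1 9.79 and 10.42 and Gpnmb, a lysosomal glycoprotein gene, 9.81 and 9.75. Vcam1, an adhesion molecule of marrow macrophages and stroma, read 8.7 and 8.86, followed in the list by Apoe (8.7 and 8.78), the heme oxygenase gene Hmox1 (8.26 and 8.93) and Trem2 (8.14 and 8.09). The complement genes C1qa (5.71 and 5.76), C1qb (6.84 and 6.85) and C1qc (6.86 and 6.7) were between the landmarks. Of the 25, 17 averaged above the olfactory limit (64.0% of all genes did). The 8 below it were the scavenger receptor genes Marco and Cd163, the mannose receptor gene Mrc1, and Timd4, Lyve1, Cd5l, Folr2 and Spic. No member of this list was 2-fold apart between the arrays, where only 0.547% of all genes were. A smaller share of dendritic cell markers than of all genes stood above the ceiling, 27.8% against 38.4%. Of 18 measured genes 5 stood above it, namely Id2 (11.08 and 10.93), Cd24a (10.89 and 10.73), Flt3 (10.13 and 9.27), Tcf4 (9.33 and 8.93) and Bst2 (7.34 and 7.39), which other cells also use, whereas Itgax (CD11c, 5.87 and 6.43), Zbtb46 (6.18 and 6.21) and Batf3 (6.15 and 6.09) lay between the landmarks. Of the 18, 13 averaged above the olfactory limit (64.0% of all genes did), and Xcr1, Clec9a, Siglech, Ccr9 and Cd83 averaged below it.

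Lymphoid, erythroid, platelet and stromal lists had most members at or under the foreign-tissue ceiling, as did all genes together (38.4% above it). The lymphoid shares above it were lower still, at 8.33% for B cell, 9.52% for T cell and 6.25% for NK cell genes. In the B cell list 2 of 24 measured genes averaged above it. Cd79b, a signalling chain of the B cell receptor, read 9.85 and 9.86, and Jchain, which joins polymeric immunoglobulin, read 7.23 and 8.24 and was 2.01-fold brighter on replicate 2. The partner chain gene Cd79a (5.32 and 5.05) and the CD20 gene Ms4a1 (4.29 and 3.86) lay in the olfactory range, as did the B lineage factor gene Ebf1 (4.92 and 4.69), unlike Cd79b. In the T cell list 2 of 21 genes were above the ceiling, the phosphatase gene Ubash3a (8.37 and 8.68) and the costimulatory receptor gene Cd28 (9.07 and 7.86, 2.31-fold brighter on replicate 1). Of the receptor complex genes, Cd3d (5.08 and 5.2) and Cd3g (5.46 and 5.18) were in the olfactory range and Cd3e (7.1 and 7.09) between the landmarks. In the NK cell list 1 of 16 genes was above the ceiling, the chemokine gene Ccl5 (8.45 and 7.78). The NK receptor genes Ncr1 (4.15 and 4.02) and Klrb1c (3.72 and 3.7) were in the olfactory range.

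Erythroid genes averaged above the ceiling in 5 of 23 cases (21.7%, against 38.4% of all genes). These were Nfe2 (10.11 and 10.41), a factor shared with megakaryocytes and myeloid cells, the mitochondrial iron importer gene Slc25a37 (9.42 and 9.58), the ferrochelatase gene Fech (8.26 and 8.49), the transferrin receptor gene Tfrc (8.21 and 7.79) and the anion exchanger gene Slc4a1 (7.64 and 7.21). The red cell heme synthase gene Alas2 (6.88 and 6.87) and Gata1 (5.75 and 5.71) lay between the landmarks, and Klf1, Epb42, Rhag, Kel, Hemgn, Trim10 and Add2 averaged below the olfactory limit. Of the 23 genes 16 averaged above that limit, where 64.0% of all genes did. Adult globin genes were not analysed here. Platelet genes passed the ceiling in 3 of 17 cases (17.6%), Nfe2, the integrin gene Itgb3 (9.24 and 8.81) and Thbs1 (7.39 and 8.55, 2.23-fold brighter on replicate 2). Platelet factor 4, Pf4, read 5.1 and 5.64 and Itga2b 6.97 and 7.3. Stromal and endothelial genes passed it in 4 of 27 cases (14.8%). These were the lipase gene Lpl (10.3 and 10.62), Pecam1 (9.17 and 8.92) and Pdgfrb (8.13 and 8.82), with Eng (6.93 and 7.82) just above it on average. The niche factor genes Cxcl12 (6.41 and 6.2) and Kitl (4.44 and 4.18), the leptin receptor gene Lepr (4.04 and 3.9) and the endothelial cadherin gene Cdh5 (5.54 and 5.6) were below it.

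Genes of eosinophils, basophils and mast cells were mostly below the ceiling and differed between the arrays in both directions. Of 21 measured genes 5 averaged above the ceiling (38.4% of all genes) and 6 were at least 2-fold apart (0.547% of all genes). The eosinophil granule genes Prg2 (6.59 and 7.85), Prg3 (6.29 and 7.74) and Epx (5.39 and 6.55) were brighter on replicate 2, and so were the mast cell carboxypeptidase gene Cpa3 (6.93 and 8.65) and the histamine-forming enzyme gene Hdc (6.93 and 8.05). The basophil protease gene Mcpt8 went the other way (8.97 and 7.55). Gata2 (8.52 and 9.48) and Siglecf (8.0 and 8.96) were above the ceiling on both arrays, and the IgE receptor genes Fcer1a (3.36 and 3.24) and Ms4a2 (4.0 and 4.23) were in the olfactory range. The list's summed linear intensity was 1962 on replicate 1 and 2959 on replicate 2.

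**Figure D2:**
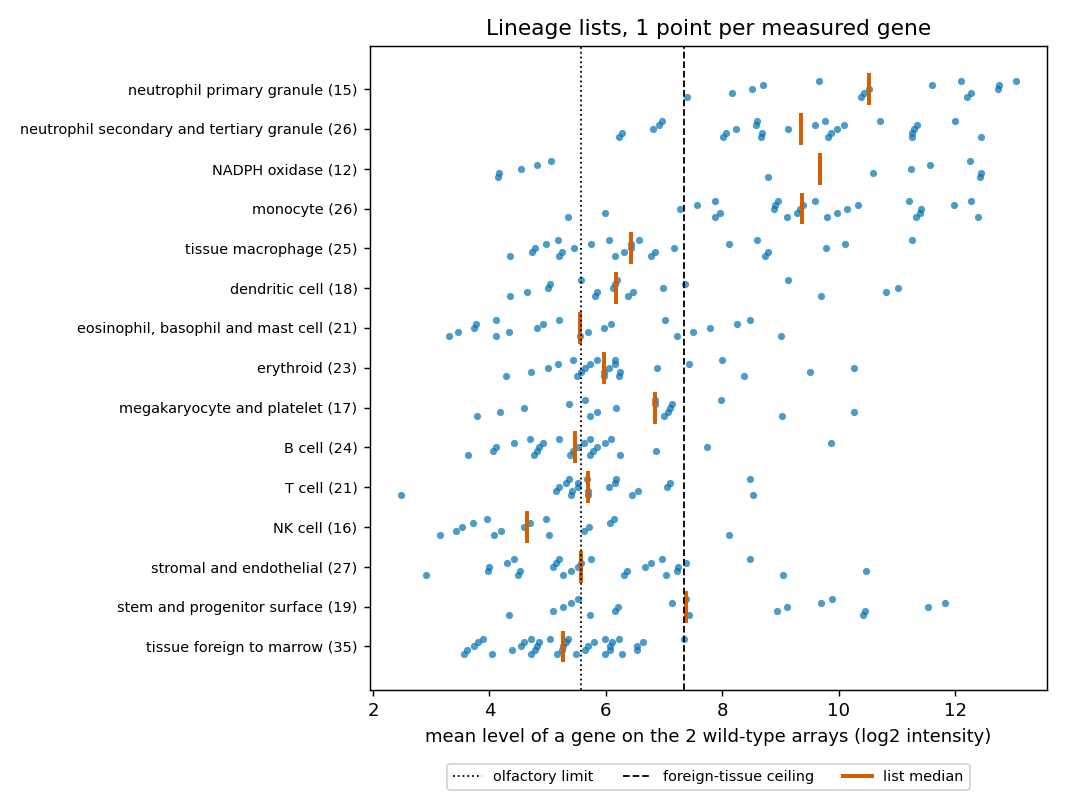
Mean level over the 2 wild-type arrays (log2 intensity) of each measured gene in the lineage lists, with the number of genes in brackets. The vertical bar marks each list's median, the dotted line the olfactory limit (5.58) and the dashed line the foreign-tissue ceiling (7.35). Medians of the granule, oxidase and monocyte lists lie between 9.36 and 10.52, and those of the B, T and NK cell lists between 4.64 and 5.70.

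Several surface genes of progenitors were above the ceiling and several stem cell markers were in the olfactory range. Of 19 measured stem and progenitor surface genes 10 averaged above the ceiling (52.6%, against 38.4% of all genes). The complement receptor-like gene Cd93 read 11.76 and 11.87, Cd34 11.53 and 11.54, and the Fc receptor genes Fcgr2b 10.25 and 10.64 and Fcgr3 10.31 and 10.51, which with CD34 mark granulocyte and macrophage progenitors. The stem cell factor receptor gene Kit read 9.02 and 8.87 and Cd48 9.92 and 9.85. Of the 19, 14 averaged above the olfactory limit (64.0% of all genes did). The 5 below it were Cd27 and the stem cell markers Slamf1, Procr, Tek and Esam. Slamf1 (CD150) read 4.4 and 4.27, Procr (EPCR) 5.28 and 5.23, Tek 5.2 and 4.99 and Esam 5.39 and 5.41. Ly6a (Sca-1) was not analysed here. Flt3, the cytokine receptor gene of early progenitors, was among the less repeatable bright members, 1.82-fold brighter on replicate 1.

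Antigens used to mark or target acute myeloid leukemia were measured for 19 genes, 14 of them above the ceiling (73.7% against 38.4% of all genes). Cd47, whose product restrains macrophage engulfment, read 12.47 and 12.52, and its receptor gene Sirpa read 11.36 and 11.4. Cd33 read 11.7 and 11.93, Cd52 11.13 and 11.28 and the lectin gene Clec12a 11.05 and 11.09. The interleukin 3 receptor alpha gene Il3ra read 9.53 and 9.25, Cd44 9.71 and 9.73 and the interleukin 1 receptor accessory gene Il1rap 7.45 and 7.65. Havcr2 (TIM-3) read 6.21 and 6.51, between the landmarks, and Cd96, Cd70 and Cd200 averaged below the olfactory limit. Of the 19 genes none was 2-fold apart between the arrays, where only 0.547% of all genes were.

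Receptors for myeloid cytokines were among the bright receptor genes. Of 63 measured cytokine and growth factor receptor genes 29 averaged above the ceiling (46.0% against 38.4%) and 13 lay in the top 10%. Chains of the GM-CSF and interleukin 3 receptors read 11.55 and 11.65 for Csf2ra, 10.87 and 11.18 for Csf2rb and 9.24 and 9.4 for Csf2rb2. The interferon receptor genes Ifngr1 (11.68 and 11.7), Ifngr2 (10.91 and 10.85) and Ifnar2 (11.16 and 11.0) and the interleukin 6 receptor gene Il6ra (10.41 and 10.24) were in the top 10% as well. Its signalling partner gene Il6st was 1.88-fold brighter on replicate 1 (10.2 and 9.29). The insulin-like growth factor receptor gene Igf1r read 9.88 and 10.12 and the tumor necrosis factor receptor genes Tnfrsf1a 10.18 and 10.42 and Tnfrsf1b 9.82 and 9.76. The erythropoietin receptor gene Epor read 5.83 and 5.87, the interleukin 7 receptor gene Il7r 5.63 and 5.82, the interleukin 5 receptor gene Il5ra 3.81 and 3.73 and Egfr 5.15 and 5.28.

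Among 31 chemoattractant receptor genes 10 averaged above the ceiling (32.3%), below the 38.4% of all genes. In the top 10% was 1 of them (3.23%), Cxcr4 (11.37 and 11.43), which retains cells in marrow by sensing CXCL12. Ptafr, the platelet-activating factor receptor gene, read 9.62 and 9.81, the leukotriene receptor gene Ltb4r1 8.77 and 8.85, and the sphingosine phosphate receptor genes S1pr4 8.93 and 9.53 and S1pr5 8.71 and 8.74. The complement receptor gene C5ar1 was 2.12-fold brighter on replicate 2 (7.34 and 8.43). The lymphocyte homing receptor genes Cxcr5 (3.81 and 3.74), Ccr4 (4.71 and 4.67) and Ccr9 (4.69 and 4.59) were in the olfactory range. Of 54 chemokine and cytokine ligand genes, 12 averaged above the ceiling (22.2%), below the share over all genes. The macrophage inflammatory protein gene Ccl3 read 11.6 and 11.69, Mif 11.67 and 11.47 and Tgfb1 11.5 and 11.5, and these were the members in the top 10%. Next in level were Ccl9 (9.42 and 9.13) and Ccl6 (9.17 and 9.35), chemokine genes of mouse myeloid cells. Ccl4, the neighbour and usual partner of Ccl3, read 5.93 and 6.23, between the landmarks. The inflammatory cytokine genes Il1b (5.6 and 5.49) and Il6 (2.6 and 2.5) were in the olfactory range, while Tnf read 8.03 and 8.44. The interferon-induced chemokine gene Cxcl9 was brighter on replicate 1 (6.68 and 5.2).

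Of 32 measured integrin and adhesion genes 18 averaged above the ceiling (38.4% of all genes). The beta 2 chain Itgb2 read 10.81 and 11.19, with its partners Itgal (9.81 and 9.82) and Itgam. The alpha 4 chain of the VLA-4 receptor, Itga4, read 10.53 and 10.46, and its partner Itgb1 8.84 and 8.93. Itga1, the alpha chain of a collagen receptor, was in the top 10% (10.84 and 10.8), while the alpha chain gene Itga2 of a related collagen receptor was in the olfactory range (5.51 and 5.65). The selectin ligand gene Selplg read 11.73 and 11.7 and the Ig-family adhesion gene Emb 11.84 and 11.73. Itgae, an integrin gene of lymphocytes in epithelia, was in the olfactory range too (4.94 and 4.87). Pattern recognition genes averaged above the ceiling in 17 of 27 cases (63.0%, against 38.4% of all genes). Tlr13, a mouse sensor of bacterial ribosomal RNA, was the brightest of the Toll-like receptor probe sets (10.8 and 10.89), followed by Tlr9 (9.14 and 8.91) and Tlr1 (8.99 and 8.96). Tlr4, the endotoxin receptor gene, read 5.99 and 6.14, although its coreceptor gene Ly96 read 9.76 and 9.33 and the adaptor gene Myd88 10.56 and 10.5. Tlr3 was in the olfactory range (3.8 and 3.73). Of Fc receptor genes, the shared signalling chain Fcer1g read 12.36 and 12.35, and Fcgr4 was 2.55-fold brighter on replicate 2 (7.04 and 8.39).

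Of 39 measured Notch pathway genes 21 averaged above the ceiling (53.8%, against 38.4% of all genes), among them processing enzymes and receptors. The gamma-secretase subunit genes Psenen (12.35 and 12.32), Aph1a (10.69 and 10.71) and Ncstn (10.21 and 10.22) and the receptor genes Notch2 (10.36 and 10.23) and Notch1 (9.22 and 9.46) were above it, as was the nuclear mediator gene Rbpj (9.63 and 9.67). The ligand genes Jag1 (5.68 and 5.84), Jag2 (6.39 and 6.39), Dll1 (5.7 and 5.87) and Dll4 (5.87 and 5.78) were all below the ceiling. The target gene Hes1 read 5.59 and 5.79, at the 38.3th percentile, close to the olfactory limit on both arrays. Hes6, a family member that can oppose Hes1, read 9.14 and 8.99.

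Within the HoxA cluster the measured members from Hoxa3 to Hoxa10 averaged above the ceiling and those at both ends did not. In chromosomal order the levels were 5.97 and 6.08 for Hoxa2, 7.64 and 7.39 for Hoxa3, 7.82 and 7.57 for Hoxa4 and 8.99 and 8.87 for Hoxa5. They were 9.15 and 9.12 for Hoxa6, 10.01 and 9.78 for Hoxa7, 10.56 and 10.4 for Hoxa9 and 8.52 and 8.47 for Hoxa10. Beyond these, Hoxa11 read 5.39 and 5.22 and Hoxa13 5.64 and 5.71, close to the olfactory limit. The cofactor genes Meis1 (9.33 and 9.18) and Pbx3 (11.07 and 10.98), which bind DNA together with HOXA9, were bright too, while Meis2 (4.43 and 4.24) was in the olfactory range. Of 27 measured genes of the HoxB, HoxC and HoxD clusters 0 averaged above the ceiling (38.4% of all genes did). In the olfactory range were 20 of them and above it 7, where 64.0% of all genes averaged above it. The brightest of the 27 was Hoxb3 (6.52 and 6.5).

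**Figure D3:**
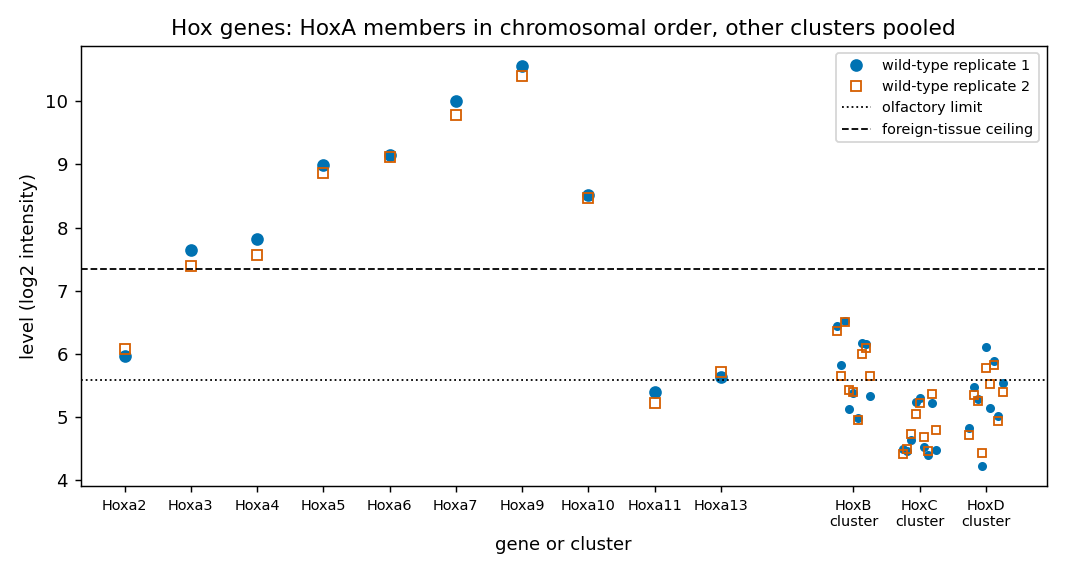
Levels (log2 intensity) of HoxA genes in chromosomal order and of the measured HoxB, HoxC and HoxD genes, on wild-type replicate 1 (filled circles) and replicate 2 (open squares). The dotted and dashed lines are the olfactory limit (5.58) and the foreign-tissue ceiling (7.35). Hoxa3 to Hoxa10 lie above the ceiling on both arrays and no HoxB, HoxC or HoxD gene does, but heights of different probe sets are not amounts of RNA on 1 scale.

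Mir196b, the microRNA gene between Hoxa9 and Hoxa10, read 7.13 and 6.84 from its precursor probe set, between the landmarks. Probe sets for precursors do not measure the mature microRNA. Of 300 microRNA genes 15 averaged above the ceiling (5.0%, against 38.4% of all genes). Among these was Mir142 (8.45 and 9.19), a microRNA of blood cells. RefSeq mature sequences (GRCm38.p6) are printed for these because one lies in the HoxA block and the other marks hematopoietic cells, with the seed (bases 2 to 8) in capitals. Their seeds all differ.
mmu-miR-196b-5p: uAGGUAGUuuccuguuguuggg
mmu-miR-142a-5p: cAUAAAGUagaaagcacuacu
mmu-miR-142a-3p: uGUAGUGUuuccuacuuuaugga

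Genes reported as targets of MLL fusions were mostly bright: 19 of 25 averaged above the ceiling (76.0%, against 38.4% of all genes). In the top 10% lay 13 of them, and the list's median level was 10.09. The cyclin-dependent kinase gene Cdk6 read 12.06 and 12.16, Myb 11.43 and 11.42, Lmo2 11.29 and 11.49, Myc 11.14 and 11.42 and Mef2c 11.32 and 11.13. The antiapoptotic gene Bcl2 read 11.1 and 10.95, Runx1 10.95 and 11.04 and the phosphatase and cofactor gene Eya1 10.5 and 10.4. Mecom (EVI1), Mn1 and Zfp521 averaged below the olfactory limit, with Mecom at 4.69 and 4.76. Satb1, a chromatin organiser gene, was 2.98-fold brighter on replicate 1 (7.81 and 6.23). The list was written from general knowledge of such targets, with earlier results of these data known, so its share is not independent of them.

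All 46 measured myeloid factor genes averaged above the olfactory limit (64.0% of all genes) and 38 above the ceiling (82.6%, against 38.4%). Spi1, which encodes PU.1, read 11.53 and 11.58, and after Irf8, Spi1, Myb and Myc came Runx1, Etv6 (10.84 and 10.96) and Elf4 (10.67 and 10.91). The C/EBP genes read 9.03 and 9.16 for Cebpa, 8.33 and 8.46 for Cebpb, 7.22 and 7.3 for Cebpd and 8.91 and 9.75 for Cebpe, the factor of terminal granulocyte maturation. Cebpe was higher on replicate 2, by 1.78-fold, and Gfi1, the repressor gene that favours the granulocyte branch, read 8.98 and 9.43. Egr1, an immediate early gene, was 2.19-fold brighter on replicate 2 (6.6 and 7.73). Stem cell factor genes were split: Lyl1 (10.53 and 10.38), Erg (9.48 and 9.57) and Hhex (8.95 and 8.94) were above the ceiling, Tal1 (6.0 and 6.0) and Hlf (5.68 and 5.5) between the landmarks, and Sox17 (4.55 and 4.42) in the olfactory range. Of 25 factor genes of other lineages 7 passed the ceiling (28.0%), below the 38.4% of all genes. They included Id2, the E protein genes Tcf12 (10.01 and 9.74) and Tcf3 (9.24 and 9.45), Zbtb7b (8.6 and 8.78) and Gfi1b (8.45 and 8.02). The remaining ones were Id1 (8.01 and 8.26) and Zbtb16 (7.86 and 8.31). Pax5 (5.75 and 5.69) and Gata3 (5.89 and 5.51) lay between the landmarks.

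Of 39 measured genes of the MLL, elongation and Polycomb complexes 35 averaged above the ceiling (89.7%, against 38.4% of all genes). The Polycomb methyltransferase gene Ezh2 read 11.09 and 11.16 and its partner Suz12 10.65 and 10.63. Dot1l, encoding the methyltransferase that MLL-AF9 recruits, read 9.78 and 9.95, Kmt2a (MLL) 9.23 and 9.18 and its cofactor gene Men1 8.87 and 8.84. Mllt3, the mouse AF9 gene, read 5.61 and 5.64, the lowest mean of the list and close to the olfactory limit. The labels do not say whether that probe set could detect the fusion transcript. Chromatin, cohesin, splicing and signalling genes that are recurrently mutated in human disease passed the ceiling in 27 of 30 cases. Srsf2, a splicing factor gene, read 11.77 and 11.53, the cohesin gene Rad21 10.92 and 11.02 and Npm1 10.5 and 10.26. Tet2 read 9.66 and 9.6, Dnmt3a 7.89 and 7.82 and Tet1 6.58 and 6.23, the last between the landmarks.

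Cell cycle genes were bright and repeatable. All 27 measured G2 and mitosis genes averaged above the ceiling (38.4% of all genes did). Their median level was 10.03, with no difference between the arrays beyond 0.24. The cyclin gene Ccnb2 read 11.26 and 11.4, the proliferation antigen gene Mki67 11.26 and 11.31, Ccna2 11.14 and 11.18 and Aurkb 11.04 and 11.05. Of 27 S phase genes 26 passed the ceiling (96.3%), led by Pcna (12.22 and 12.17) and the replicative helicase gene Mcm7 (11.37 and 11.14). Of the 27, 5 were brighter on replicate 2, where 46.9% of all genes were, and 22 on replicate 1. The list median was -0.14 for replicate 2 minus replicate 1. The cell cycle inhibitor genes Cdkn2c (10.67 and 10.73) and Cdkn1b (9.83 and 9.9) were in the top 10%, whereas Cdkn2a (6.63 and 6.67) and Cdkn2b (6.01 and 6.13) lay between the landmarks. In the BCL2 family, Bcl2, Mcl1 (10.2 and 10.07) and the death effector gene Bak1 (10.27 and 10.47) were in the top 10%, and Bcl2l1 (BCL-XL) read 7.38 and 7.54.

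Metabolic and housekeeping families followed. Ribosomal protein genes had a median level of 11.28, and 47 of 61 (77.0%) lay in the top 10%. For this and the next counts the share over all genes is 10% by construction. Heterogeneous nuclear ribonucleoprotein genes (12 of 17), chaperonin genes (7 of 9) and Arpc genes of actin nucleation (4 of 6) were similarly placed. Ribosomal protein genes have many processed copies in the genome, and their probe sets may read several. Among 20 glycolysis genes 10 were in the top 10%, including the hexokinase gene Hk1 (12.44 and 12.43), Ldha (12.27 and 12.35) and Pgam1 (12.1 and 12.14), and Ldhb was in the olfactory range on average (5.77 and 5.37). Lysosomal genes had 13 of 19 members in the top 10%, among them Psap (12.48 and 12.31), Ctsa (12.12 and 12.15) and Ctse (11.5 and 11.54), the gene of an aspartic protease. At the other end, 0 of 19 Wnt ligand genes, 0 of 34 protocadherin genes and 0 of 40 beta-defensin genes averaged above the ceiling, and 3 of 1027 olfactory receptor genes (0.292%) did. Of all genes, 38.4% averaged above it.

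The lists for class I and class II antigen presentation differed. Of 13 measured genes in the class I list 12 averaged above the ceiling (92.3%, against 38.4% of all genes). A further 6 of its 19 listed genes were not measured. The list is not limited to class I molecules themselves, and its 4 brightest members were Calr, B2m, Pdia3 and Tapbp. B2m read 12.35 and 12.08 and the peptide transporter gene Tap1 8.98 and 8.7. Of 11 measured genes in the class II list 3 passed the ceiling (27.3%), H2-DMa (11.37 and 11.03), H2-Ob (8.09 and 7.54) and the costimulatory gene Cd80 (7.62 and 7.76). The structural and assembly genes H2-Aa (5.62 and 5.46), H2-Ab1 (5.82 and 5.51), Cd74 (6.67 and 6.39) and Ciita (5.71 and 5.61) were lower. Of the 11, 2 were brighter on replicate 2, where 46.9% of all genes were, and 9 on replicate 1. The list median difference was -0.28. Interferon-stimulated genes passed the ceiling in 8 of 27 cases (29.6%), below the 38.4% of all genes. The brightest were Ifitm2 (11.9 and 11.87), Ifitm3 (10.39 and 10.57) and Ifitm6 (10.35 and 10.2). Ifit1 (4.54 and 4.07), Ifit3 (4.26 and 4.06) and Mx2 (3.34 and 3.42) were in the olfactory range. Immediate early genes, a sign of tissue handling as well as of signalling, included Dusp1 (10.17 and 10.37), Zfp36 (9.62 and 9.82), Jun (8.24 and 8.13) and Fos (8.02 and 8.05).

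**Figure D4:**
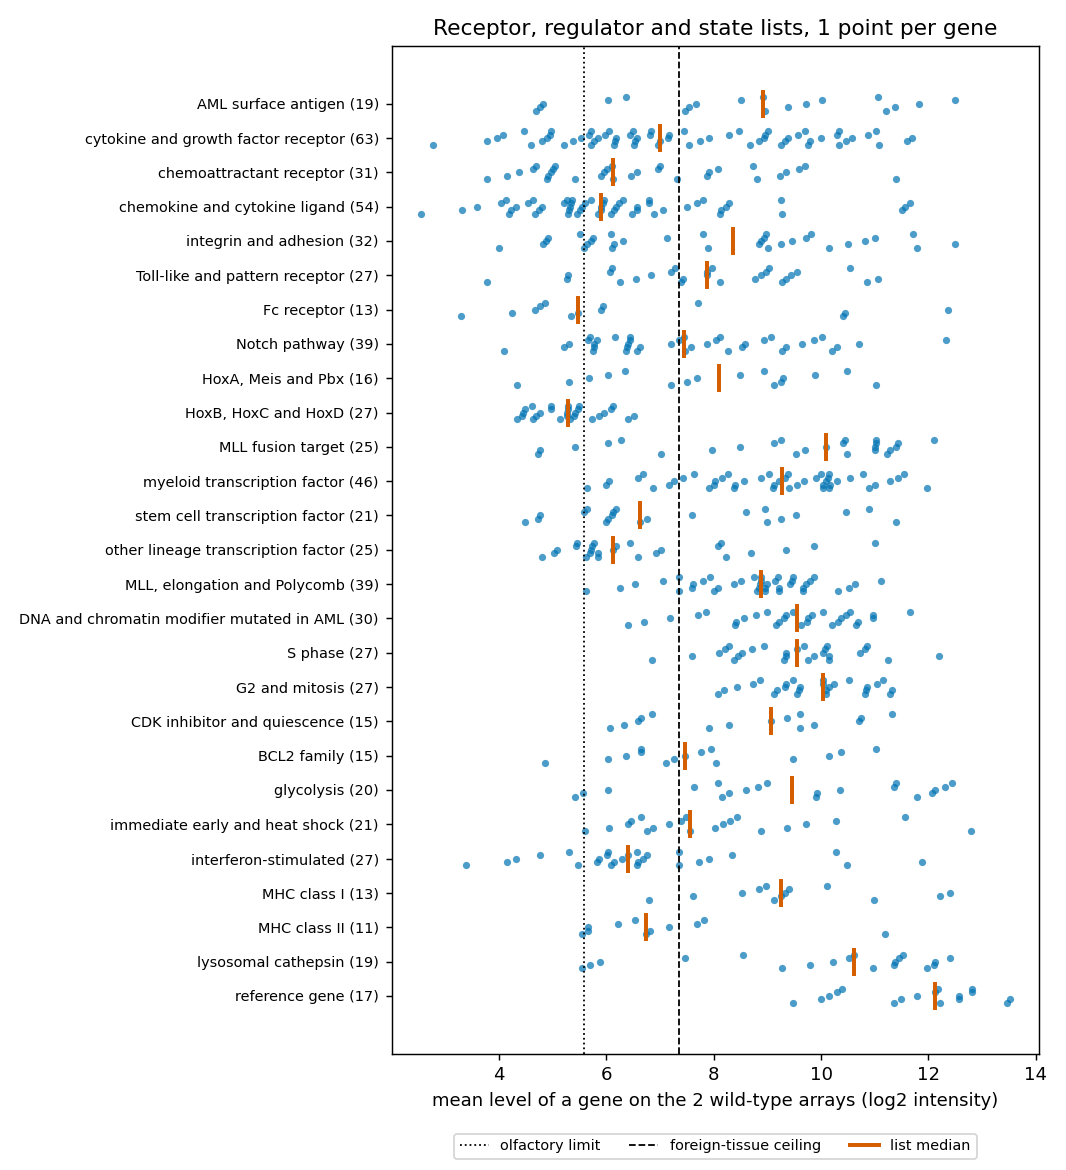
Mean level over the 2 wild-type arrays (log2 intensity) of each measured gene in the receptor, regulator and cell state lists, with the number of genes in brackets and the median as a vertical bar. The dotted line is the olfactory limit (5.58) and the dashed line the foreign-tissue ceiling (7.35). All 27 G2 and mitosis genes lie right of the dashed line and all 27 HoxB, HoxC and HoxD genes left of it.

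Of the 109 genes at least 2-fold apart, 9 were in the late granule list and 3 were immunoglobulin variable genes. The largest difference was in a kappa variable gene of immunoglobulin (5.18 and 9.33), and a second such gene was also brighter on replicate 2 (6.03 and 7.99). The heavy chain gene Ighg3 was brighter on replicate 1 (6.0 and 4.23). Of 8 immunoglobulin variable genes 5 were brighter on replicate 2 (46.9% of all genes), 3 of them at least 2-fold (0.361% of all genes). The summed linear intensity of the 8 was 322 on replicate 1 and 1219 on replicate 2. Orm1, encoding an acid glycoprotein of late granules and liver, read 5.81 and 8.78, and the myelin protein gene Pmp22 was 6.32-fold brighter on replicate 2 (7.99 and 10.65). Pla2g7 (5.28 and 7.69), a lipase gene of macrophages, Ces1d (5.16 and 7.3), Il1f9 (5.73 and 7.85), Mogat2 (7.9 and 9.75) and Retnla (4.52 and 6.36) were in the same direction, as was the stefin-related gene Cstdc6 (4.34 and 6.86). On replicate 1, Stxbp6, encoding a SNARE-binding protein, was 7.42-fold brighter (9.85 and 6.96), and the imprinted gene Dlk1 4.06-fold (9.57 and 7.55). Cnn3 (8.05 and 6.15), Tut4 (7.84 and 6.11), Mgam (8.52 and 6.82), Rhoj (9.55 and 7.9), Fads2 (8.23 and 6.63), B3gnt5 (8.16 and 6.56), Nedd4 (9.11 and 7.51) and Pi15 (5.9 and 4.35) followed. With 1 pair of arrays these differences have no test.

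Set beside the late granule genes (median difference 0.77), the median differences of other lists were 0.07 for primary granule, -0.01 for monocyte, -0.08 for erythroid, -0.03 for T cell and -0.01 for reference genes. Larger ones were -0.28 for MHC class II, 0.17 for eosinophil, basophil and mast cell, -0.14 for S phase, -0.14 for MHC class I and -0.13 for HoxA, Meis and Pbx genes. Quantile normalization of the pair gave 0.79 and median centring 0.82 for late granule genes, with 25 of 26 higher on replicate 2 each time. Whether the share of maturing neutrophils differed between the samples on the 2 arrays was not tested.

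**Figure D5:**
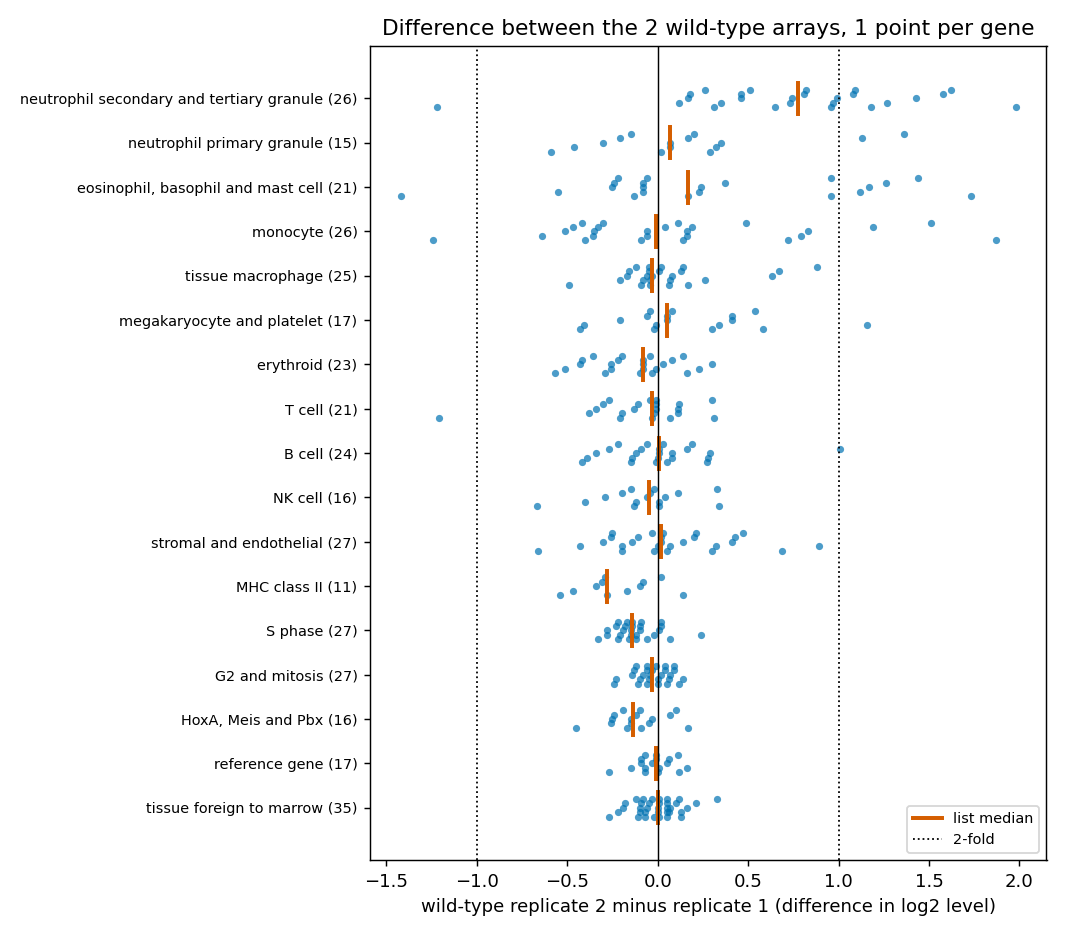
Difference in level between wild-type replicate 2 and replicate 1 (log2) for each measured gene of 17 lists, with the list median as a vertical bar and dotted lines at a 2-fold difference. Secondary and tertiary granule genes lie right of 0 in 25 of 26 cases with a median of 0.77, while reference genes and G2 and mitosis genes stay within 0.27 of 0.

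Promoter sequence, which the ranking did not use, differed between level classes. GGGCGG, the GC box, stood in 69.1% of 1636 promoters of the top 10% of genes (95% Wilson interval 66.9 to 71.3), in 49.9% of all 15563 and in 25.9% of 5391 promoters of genes in the olfactory range. Within the top 1% it stood in 57.6% of 165 promoters (49.9 to 64.9), below the share of the top 10%. TTTCCG, the core of an ETS site, stood in 17.3%, 11.4% and 5.94% of the top 10%, all and olfactory-range promoters, and in 20.6% in the top 1% (15.1 to 27.4). TATAAA stood in 6.91% of the top 10%, 12.1% of all and 21.2% in the olfactory range, and in 20% in the top 1% (14.6 to 26.8). Both GGGCGG and TATAAA thus had a top 1% share that lay toward the dimmer classes relative to the top 10%. CCAAT stood at 40.3%, 38.3% and 38.3% in the top 10%, all genes and the olfactory range, and at 38.8% in the top 1%. TGACGTCA stood in 3.61% of the top 10%, 2.50% of all and 3.64% of the top 1%, and TTGCGCAA in 0.428%, 0.218% and 0.606%. Each motif was searched on both strands of the same 300-base windows. Base composition moved with these shares, since the median GC content was 61.7% in the top 10%, 57.7% over all and 49.3% in the olfactory range, with 59.0% in the top 1%, and its part in them was not tested. By chromosome, 29.8% of 739 X-linked genes averaged above the ceiling against 38.9% of 19106 autosomal genes.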

How the data were processed

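Total RNA was hybridised to Affymetrix mouse gene arrays, 1 per sample. The authors deposited 1 linear intensity per probe set. The submitters' processing notes name RMA and the Expression Console software; versions and build are not given in the sources used here. RMA scales arrays to each other, so a difference in total RNA would not show. Array medians were 67.3 and 65.0. The number of arrays limits precision.

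Of 35556 probe sets, 21789 carry 1 symbol in the platform annotation (21698 matched RefSeq genes), 1621 several and 12146 are not listed. log2 was taken, and each gene was read from its brightest probe set, by the mean of both wild-type arrays. There was no filter and no test, and 0 columns of sample values were left out. Python 3.11.15, numpy 2.4.6 and pandas 2.3.3 were used, and the counting steps were tested on simulated data. Members and the 43 gene lists were chosen with earlier results of these data known. Named genes are the 20 brightest and 12 most different per direction, leaving aside small noncoding and unnamed transcripts (Rn7sk, the brightest, is named outside this rule), and each list's defining, 4 brightest, 2-fold apart and dimmest members; further members are named by role, after their values were seen. The ceiling and most of the 23 families defined by symbol were chosen after seeing the data.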

Additional observations from a re-analysis of the deposited data

How the results depend on the processing

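No paired analysis was possible because 1 group was described and no result comes from a test. The count of genes above the background landmark was 12760 by the olfactory limit and 7654 by the foreign-tissue ceiling, a landmark chosen after seeing the data; with the 99th percentile of olfactory genes, the 95th of vomeronasal genes or the highest Y-linked level it was 9725, 15788 and 8599. Each array alone gave 12546 to 12814. The 109 genes at least 2-fold apart became 54 when only genes averaging above the ceiling were kept, an alternative also chosen after seeing the data, and between 94 and 116 under quantile normalization, median centring, the mean of probe sets and the olfactory limit as a filter. Of the 100 brightest genes 92 to 99 were shared with each alternative. Listed genes in the top 25% numbered 372, and 287 to 379 under the alternatives; by list, 10 of 41 moved by over 1.5 times when ranks ran only among genes above the olfactory limit. Motif shares in the top 25% lay within the intervals of the top 10%. Protein length by level was not run. Having only 2 arrays limits every value; the median absolute difference was larger among dim genes, but genes 2-fold apart were not most frequent there.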
